A study of Mus musculus with 6 samples.

Results

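The extracellular matrix of the embryonic bladder was followed through 46 genes that code for its collagens, laminins, glycoproteins and proteoglycans. The members were named by symbol, and 45 of them had an array feature annotated with that single symbol, out of 19938 genes tested. Fbn1 is not analysed here. The members were split by known location into 19 basement membrane genes, 24 measured genes of the interstitial matrix, and Hmcn1 and Edil3, which were kept apart. RNA came from bladders of E14.5 mouse embryos (E, embryonic day), in 3 pools per genotype with 2 bladders in each pool, and each pool was read on 1 array. The Klf5-deleted embryos carried a deletion (written Klf5 ∆/∆) on both alleles of Klf5, a zinc-finger transcription factor of epithelia. The controls were Klf5+/+ and carried ShhGfpCre, a Cre recombinase allele expressed where Shh is expressed, such as bladder epithelium. The labels do not repeat the Cre allele for the deleted group, and the deletion was taken to lie in cells that had expressed Shh. The source name reads urothelium, whereas the extraction protocol speaks of whole organs.

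A basement membrane is a thin sheet on which epithelia rest and which also wraps smooth muscle, nerves and capillaries. Laminins and type IV collagen form separate networks in it, and nidogens and the proteoglycan perlecan link the networks. Beneath an epithelium, the interstitial matrix is laid down mainly by mesenchymal cells as collagen fibrils, elastic fibres, fibronectin and small proteoglycans. In the bladder this matrix forms the lamina propria and surrounds the muscle bundles, and it carries the stretch of filling.

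Values are log2 levels made with RMA (robust multi-array averaging), and differences are Klf5-deleted minus control on that scale, fitted with limma over all 19938 genes. A gene passed when its Benjamini-Hochberg adjusted p over all genes was under 0.05. Klf5 itself read 10.12, 10.34 and 10.23 on the deleted arrays and 10.84, 10.63 and 10.97 on the control arrays. Past the threshold, 7 of 10 epithelial markers fell, against 1.59% of all genes. Their list means were 9.51 to 9.85 on deleted and 10.69 to 10.89 on control arrays. Smooth muscle markers averaged 11.70 to 11.95 and 11.95 to 12.29, and fibroblast and mesenchyme markers 10.84 to 10.88 and 10.81 to 10.89, so RNA of muscle and connective tissue was read in both groups. In such whole-organ samples fewer cells of a type and less RNA per cell cannot be told apart. Control 2 stood apart in placental and decidual markers, with a list mean of 10.12 against 5.90 to 7.83 on the other arrays.

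Few matrix genes differed past the threshold in the Klf5-deleted bladders. Of the 45 members 3 rose, none fell and 42 did not pass, where 1.98% of all genes passed, 0.386% rose and 1.59% fell. The 3 were Hmcn1, Edil3 and Ltbp1. Leaving out any 1 array left 0 or 1 of them past the threshold, and fitting the replicate number as a block left none. Centring on housekeeping genes added Col12a1, Fbn2 and Tnc, so that 6 rose. Over all members the median difference was -0.08, against -0.01 over all genes tested. Of the members 30 were lower and 15 higher, where 53.5% of all genes were lower. At an unadjusted p under 0.05 there were 10 lower and 5 higher members of 45, where 14.4% of all genes lay under it, 8.08% lower and 6.34% higher. In the fit without centring, the 95% confidence interval of the difference lay within a 1.5-fold change in either direction for 40 of 45 members. The exceptions were Hmcn1, Edil3, Ltbp1, Tnc and Lum. These intervals are not adjusted for the number of genes and hold for this scaling alone. Housekeeping centring changed the sign of 21 of 45 members, and RMA may compress the differences of dimmer members.

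**Figure D1:**
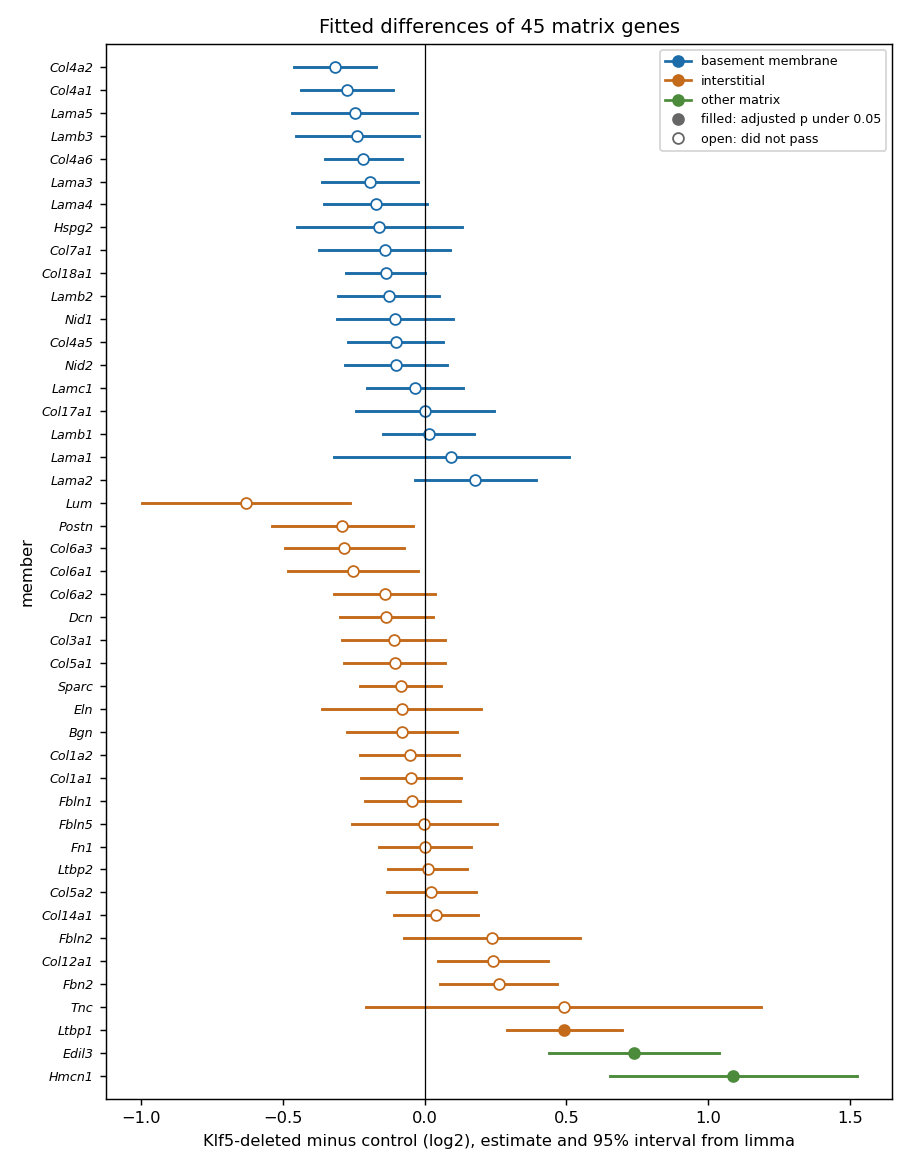
Fitted difference of each of the 45 members (Klf5-deleted minus control, log2) with its 95% interval from limma, grouped and coloured by class and ordered by difference. Filled points, Hmcn1, Edil3 and Ltbp1, had an adjusted p under 0.05; most basement membrane genes sit slightly left of 0 and interstitial genes lie on both sides.

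The 19 genes classed as basement membrane read slightly lower in the Klf5-deleted bladders, and none passed the threshold. Hmcn1, whose product is known to act at basement membranes, was kept outside this class and rose (1.09, adjusted p = 0.035 by limma). The median difference was -0.14, with a range of -0.32 to 0.18. In all, 15 of the 19 members were lower and the other 4 higher, where 53.5% of all genes were lower. In 9 of 19 members all deleted arrays lay below all control arrays, and in no member above them; over all genes tested, 11.8% had groups that did not overlap with the deleted arrays lower and 8.67% with them higher. At an unadjusted p under 0.05 there were 6 of 19 members, all lower, against 8.08% of all genes that were lower. Without centring, all 19 intervals lay within a 1.5-fold change. Centring each array on the median of 7 housekeeping genes moved the median of all genes to 0.20, although those 7 genes had a median difference of -0.01. It left 5 of 19 members lower (Col4a2, Col4a1, Col4a6, Lama5 and Lamb3) and turned the class median to 0.07. This scaling moves all genes by the same amount. The class therefore stood at -0.13 relative to the median of all genes under both scalings by construction, which is no separate support.

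Col4a2 and Col4a1 had the lowest differences of the class. Col4a2, a chain of the type IV network common to most basement membranes, read 10.16, 10.08 and 10.20 on deleted arrays and 10.47, 10.45 and 10.47 on control arrays. The groups were apart by more than the spread within either, and the difference was -0.32 (SE 0.06, adjusted p = 0.0556 by limma), just short of the threshold. Its partner chain gene Col4a1 read 10.09, 10.09 and 10.18 on deleted against 10.36, 10.48 and 10.33 on control arrays. That difference was -0.27 (SE 0.07, adjusted p = 0.118 by limma), again without overlap. Under housekeeping centring the differences were -0.10 for Col4a2 and -0.06 for Col4a1, so neither turned in sign.

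Col4a1 and Col4a2 are neighbours read in opposite directions. In the RefSeq table of assembly GRCm38.p6, the Col4a1 start on the minus strand and the Col4a2 start on the plus strand lie 21 bases apart on chromosome 8. The stretch from start to start is shown because both low members of the network share it. By these starts the transcripts overlap there, so the stretch lies inside both and not between the genes. It is given on the strand of Col4a2 at chr8:11312805-11312826.
Col4a2 to Col4a1 starts: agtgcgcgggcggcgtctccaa
The genes Col4a5 and Col4a6, which code for chains of the type IV network of epithelia and smooth muscle, also form a head-to-head pair, on chromosome X. Their starts lie 1343 bases apart and the transcripts do not overlap.

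Col4a6 read 7.77, 7.81 and 7.85 on deleted arrays and 8.03, 8.04 and 8.01 on control arrays. The groups did not overlap, and the difference was -0.22 (SE 0.06, adjusted p = 0.14 by limma). Col4a5 overlapped between the groups, with deleted arrays from 8.13 to 8.27 and control arrays from 8.20 to 8.33 and a difference of -0.10 (SE 0.07). Col18a1, whose product is a heparan sulphate collagen of epithelial and vascular basement membranes, read 9.41 to 9.49 on deleted and 9.58 to 9.63 on control arrays, a difference of -0.14 (SE 0.06, adjusted p = 0.352 by limma). All 5 genes of this group were lower, and in 4 the groups did not overlap; with housekeeping centring Col4a5 and Col18a1 turned to 0.11 and 0.07.

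Among the laminins, the chains differed from each other. Lama3 and Lamb3 code for chains of the laminin that anchors stratified epithelia through hemidesmosomes. Lamb3 read 7.50, 7.59 and 7.62 on deleted arrays and 7.67, 7.77 and 7.99 on control arrays. Control 3 was its highest array, and the deleted arrays all lay lower, with a difference of -0.24 (SE 0.09, adjusted p = 0.305 by limma). Lama3 read 7.55 to 7.65 on deleted and 7.71 to 7.91 on control arrays, a difference of -0.19 (SE 0.07).

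Lama5, the alpha chain of most mature epithelial and vascular laminins, read 9.21, 9.12 and 9.21 on deleted and 9.24, 9.49 and 9.56 on control arrays. The groups were separated only narrowly, because control 1 lay just above the deleted arrays; the difference was -0.25 (SE 0.09, adjusted p = 0.29 by limma). Lama4, the alpha chain of endothelium and muscle, differed by -0.17 (SE 0.08) and Lamb2, a beta chain of muscle and vascular membranes, by -0.13 (SE 0.08), both with groups that did not overlap. Endothelial markers had a median difference of -0.13 and smooth muscle markers one of -0.30, with no member of either list past the threshold; their part in the values of Lama4 and Lamb2 was not tested.

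The widely expressed chains had differences near 0. Lamc1, the gamma chain shared by most laminins, differed by -0.03 (95% interval -0.20 to 0.13), and Lamb1, the beta chain of early laminins, by 0.01 (95% interval -0.15 to 0.17). Lama2, the alpha chain of muscle and nerve laminin, read 9.45 to 9.77 on deleted and 9.40 to 9.48 on control arrays. Its difference of 0.18 (SE 0.09, adjusted p = 0.437 by limma) was the highest of the class. Lama1, the alpha chain of the earliest embryonic basement membranes, read 8.93, 8.87 and 8.70 on deleted and 8.30, 8.98 and 8.93 on control arrays. Control 1 was far below the rest, so the spread among controls (SD 0.38) exceeded the difference of 0.09.

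Linkers and anchoring collagens overlapped between the groups. Nid1 and Nid2, the nidogens that bridge laminin and type IV collagen, differed by -0.10 each. Hspg2, which codes for perlecan, read 11.46, 11.04 and 11.46 on deleted and 11.38, 11.50 and 11.56 on control arrays. Deleted 2 alone was low, and without it the difference of -0.16 became -0.02. Col7a1, the collagen of anchoring fibrils, differed by -0.14 (SE 0.10). Col17a1, a transmembrane collagen of hemidesmosomes, differed by 0.00 (95% interval -0.24 to 0.25). Epithelial markers had a median difference of -1.31, but 3 of them did not pass. These were Krt5 and Trp63, both markers of basal cells, and Epcam. Krt5 differed by -0.10 (95% interval -0.87 to 0.68), Trp63 by -0.24 (-0.50 to 0.02) and Epcam by -0.39 (-0.93 to 0.16). Krt5 read 9.85 to 11.37 on control arrays, so its difference was poorly bounded.

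The interstitial matrix held genes that differed in both directions around a median near that of all genes. Of 24 members 1 rose, none fell and 23 did not pass, where 0.386% of all genes rose and 1.59% fell. The median was -0.05, and 15 members (62.5%) were lower against 9 that were higher, near the 53.5% of all genes that were lower. The groups did not overlap in 7 members, 4 lower and 3 higher, against 20.5% of all genes in either direction. With housekeeping centring 4 of 24 were lower and the median was 0.16.

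The fibrillar collagens, which make up the tensile fibres of connective tissue, stayed close to the controls. Col1a1 read 13.61, 13.46 and 13.68 on deleted and 13.68, 13.60 and 13.62 on control arrays. The arrays of both groups interleaved, with a difference of -0.05 (95% interval -0.23 to 0.13). Col1a2 and Col3a1 differed by -0.05 and -0.11, and Col5a1 and Col5a2, which set fibril diameter, by -0.11 and 0.02. No fibrillar collagen separated the groups. Fn1, the fibronectin on which many matrix proteins assemble, differed by 0.00 (95% interval -0.16 to 0.16).

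Collagens that decorate or link fibrils differed from each other in direction. The type VI chains, which form beaded filaments around cells, were lower: Col6a3 read 11.40, 11.32 and 11.61 on deleted and 11.78, 11.74 and 11.66 on control arrays. The gap between the groups was narrow, at deleted 3 and control 3, and the difference was -0.28 (SE 0.09, adjusted p = 0.204 by limma). Col6a1 and Col6a2 differed by -0.25 and -0.14, with overlap; under housekeeping centring Col6a2 turned to 0.07, while Col6a1 and Col6a3 stayed at -0.04 and -0.07. Col12a1, a fibril-associated collagen of dense connective tissue, read 12.26, 12.07 and 12.23 on deleted and 11.83, 11.99 and 12.02 on control arrays. It was higher without overlap, by 0.24 (SE 0.08, adjusted p = 0.25 by limma), and passed only with housekeeping centring, at 0.45 (adjusted p = 0.0421 by limma). The related Col14a1 differed by 0.04 (SE 0.06).

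The 3 small leucine-rich proteoglycans among the members, which bind and space collagen fibrils, were lower without passing. Outside the members, the related Ogn and Fmod differed by 0.34 and 0.03, and Prelp and Aspn by -0.80 and -0.08, without passing. Lum, which codes for lumican, had the lowest difference of all members: it read 11.50, 11.50 and 11.90 on deleted and 12.51, 12.26 and 12.004 on control arrays. Deleted 3 and control 3 nearly met, and the difference was -0.63 (95% interval -0.996 to -0.26, adjusted p = 0.114 by limma). It was -0.42 with housekeeping centring and -0.76 to -0.50 when any 1 array was left out, and passed in none of these fits. Dcn and Bgn, which code for decorin and biglycan, differed by -0.14 and -0.08 with overlap, and both turned in sign with housekeeping centring, to 0.08 and 0.13.

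Among adhesive and matricellular proteins, Postn, a periostin of collagen-rich and stretched tissues, read 12.09, 12.38 and 12.40 on deleted and 12.70, 12.59 and 12.45 on control arrays. Deleted 1 was lowest, and the groups were just apart at a difference of -0.29 (SE 0.11, adjusted p = 0.276 by limma). Sparc, a collagen-binding glycoprotein, differed by -0.08 (SE 0.06), also without overlap. Tnc, the tenascin of tendon, perichondrium and remodelling mesenchyme, varied most within groups: it read 9.72, 9.81 and 10.71 on deleted and 9.59, 9.999 and 9.17 on control arrays. Deleted 3 stood above the rest, and the difference of 0.49 (95% interval -0.21 to 1.19, adjusted p = 0.526 by limma) was 0.18 without it. The mean of skeletal muscle markers was also highest on deleted 3, above the 8.40 to 9.41 of the other arrays. Its part in the Tnc reading was not tested.

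**Figure D2:**
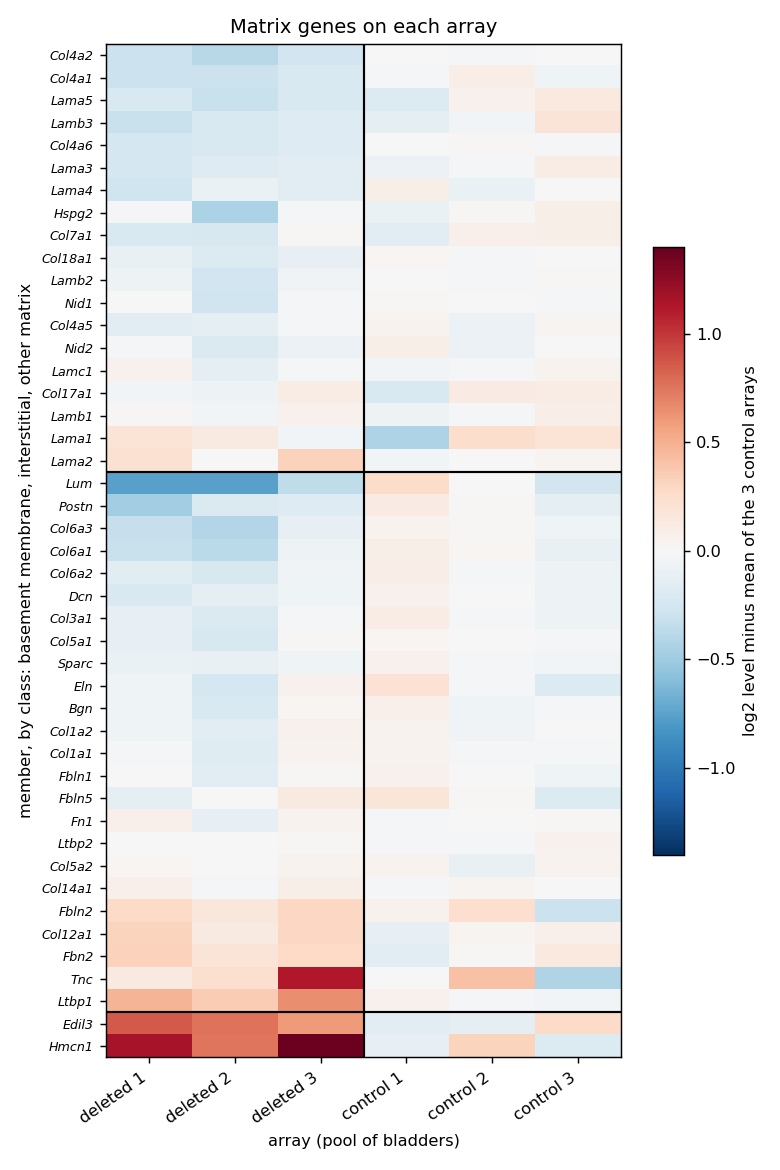
Log2 level of each member on each array, minus the mean of the 3 control arrays, with lines between the classes and between the genotypes. Hmcn1, Edil3 and Ltbp1 are higher on all 3 deleted arrays, Lum is lower on all 3, and single arrays stand out for Tnc (deleted 3), Lama1 (control 1) and Hspg2 (deleted 2).

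Elastic fibres are built of elastin on a scaffold of fibrillin microfibrils, with fibulins as adaptors and latent TGF-beta binding proteins as microfibril-bound holders of the growth factor. In this group Ltbp1 was the only member to pass among 7 measured. It read 11.32, 11.21 and 11.50 on deleted arrays and 10.91, 10.83 and 10.82 on control arrays. The lowest deleted array lay above every control, and the difference of 0.49 (SE 0.09) corresponds to a 1.41-fold rise (adjusted p = 0.0373 by limma). The call rested on all 6 arrays: leaving out any 1 gave differences of 0.42 to 0.56 and adjusted p of 0.0517 to 0.138. The paralog Ltbp2 differed by 0.01 (SE 0.06).

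Fbn2, the fibrillin of embryonic microfibrils, read 12.37, 12.23 and 12.32 on deleted and 11.89, 12.06 and 12.18 on control arrays. It was higher without overlap, by 0.26 (SE 0.09, adjusted p = 0.241 by limma), and passed only with housekeeping centring, at 0.47 (adjusted p = 0.0382 by limma). Fbln2, a fibulin that binds fibrillin and basement membrane proteins, differed by 0.24 (SE 0.13), with control 3 low at 9.85. Eln, Fbln1 and Fbln5 overlapped between the groups, with differences of -0.08, -0.04 and 0.00. The 11 measured TGF-beta ligands, receptors and regulators held no gene past the threshold, 2 at an unadjusted p under 0.05 (14.4% over all genes) and a median of 0.07. Of the ligands that Ltbp1 holds latent, Tgfb1 differed by -0.27, Tgfb2 by 0.14 and Tgfb3 by 0.24 (adjusted p = 0.151, 0.528 and 0.437 by limma).

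Hmcn1 showed the largest fitted difference of all members. It codes for hemicentin, a very large immunoglobulin-repeat protein that ends in fibulin-like domains and is known to hold tissues together at basement membranes. The feature used read 11.88, 11.48 and 12.10 on deleted and 10.62, 11.04 and 10.54 on control arrays. The lowest deleted array, deleted 2, lay above the highest control, control 2, and the difference of 1.09 (SE 0.19) corresponds to a 2.13-fold rise (adjusted p = 0.035 by limma). It passed without deleted 2 or without control 2, and not without deleted 1, deleted 3, control 1 or control 3 (adjusted p of 0.0834 to 0.143 by limma).

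Hmcn1 is the only member with more than 1 feature, and its features allow the reading to be repeated along the gene within the same RNA. All 77 features were higher in the Klf5-deleted group, by 0.27 to 1.30 with a median of 0.77, and in 76 of them the groups did not overlap. The feature with the highest mean, which stood for the gene, had a difference above that median, so the value of 1.09 lies in the upper part of the range. The features share the same 6 RNA samples and are not replicates of the genotype.

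**Figure D3:**
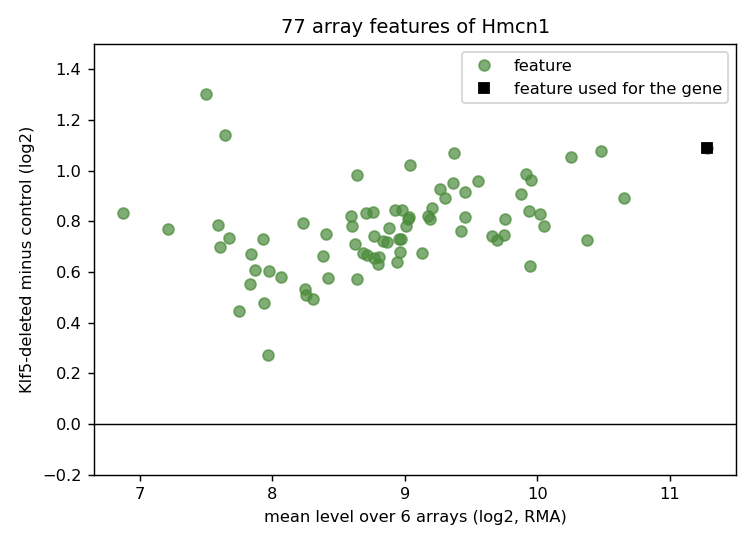
Each point is 1 of the 77 array features of Hmcn1, placed by its mean level over 6 arrays (log2, horizontal) and its difference between Klf5-deleted and control (log2, vertical). All points lie above 0, from 0.27 to 1.30, and the square marks the feature that stood for the gene.

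Edil3 codes for a secreted protein that binds integrins on endothelial and other cells through an Arg-Gly-Asp motif. It read 10.81, 10.71 and 10.55 on deleted and 9.81, 9.82 and 10.22 on control arrays. Control 3 was the nearest control to the deleted arrays, and without it the difference was 0.88 in place of 0.74. Edil3 was 1.67-fold higher (SE of the log2 difference 0.13, adjusted p = 0.0364 by limma); the 5 fits that each left out another array gave adjusted p-values of 0.06 to 0.149. Endothelial markers, given for comparison, had no member past the threshold and means of 10.39 to 10.72 on deleted and 10.67 to 10.73 on control arrays. Deleted 2 was the highest deleted array of that list and lay within the range of the controls; the part of endothelium in the Edil3 reading was not tested.

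**Figure D4:**
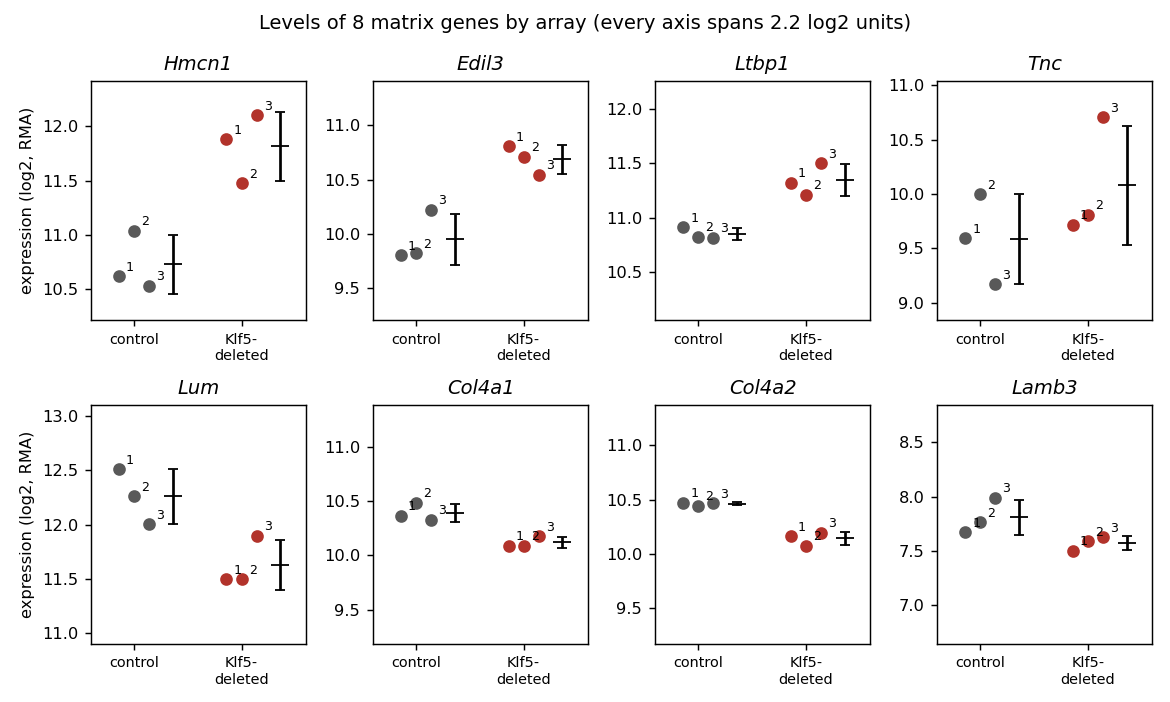
Log2 level of 8 matrix genes on each array (points, numbered by replicate) with the mean and SD of each group of 3 beside them; each vertical axis spans the same length. Hmcn1, Edil3 and Ltbp1 are separated upward and Col4a1, Col4a2, Lum and Lamb3 downward, while Tnc overlaps.

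Stretches before annotated starts of Ltbp1 and Hmcn1 are shown because both genes rose, with matches to the CACCC letters, a form of box that Kruppel-like factors are known to bind, in capitals on either strand (CACCC or GGGTG). The Ltbp1 stretch ends where the annotated gene begins, on the plus strand at chr17:75005279-75005479 of GRCm38.p6, and holds 2 matches. The table gives Ltbp1 another start farther along the gene, and the 250 bases before that one, at chr17:75178531-75178780, hold 0 matches. Which start the array feature reads was not analysed here. The Hmcn1 stretch, on the minus strand at chr1:150993523-150993551, surrounds the single match in the 250 bases before its start in the table; it lies inside the annotated gene, which begins farther upstream, at position 150993652.
Ltbp1: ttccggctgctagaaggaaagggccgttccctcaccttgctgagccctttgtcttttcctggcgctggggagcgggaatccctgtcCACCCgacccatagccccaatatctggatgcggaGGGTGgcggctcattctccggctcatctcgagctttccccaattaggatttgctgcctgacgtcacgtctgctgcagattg
Hmcn1: agtcgccctccgGGGTGggggctccagca
Of 39 start windows of 31 members, 28 (71.8%) held CACCC on either strand in those 250 bases, against 52.0% of 32851 windows of the table. GGGCGG, another GC-rich box, was in 53.8% of member windows and 32.7% of all. The member windows were also richer in G and C, with a median of 58.8% against 52.4%. CCAAT was in 30.8% and 33.8%, and TATAA in 20.5% and 22.8%, each on either strand. A match is a count of letters and not a binding site, and 15 members had no window in the table.

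Set against each other within arrays, the classes did not separate the genotypes. The mean of the 19 basement membrane genes was 9.80, 9.72 and 9.84 on deleted and 9.84, 9.92 and 9.96 on control arrays. The mean of the 24 interstitial genes was 11.76, 11.70 and 11.90 on deleted and 11.86, 11.83 and 11.74 on control arrays. Within each array, basement membrane minus interstitial was -1.96, -1.98 and -2.06 for the deleted group and -2.02, -1.91 and -1.78 for controls. Control 1 lay among the deleted arrays on this measure, so the groups overlapped. The medians of the fitted differences stood 0.09 apart, with basement membrane the lower (-0.14 against -0.05), and no test was made of this gap because the members were chosen with results known. The gap kept its sign when any 1 array was left out, at -0.10 to -0.04.

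The deleted arrays also differed among themselves in the matrix as a whole. Deleted 2 was the lowest of its group in 31 of 45 members and deleted 3 the highest in 35 of 45; over all genes tested, deleted 2 was lowest in 7887 and deleted 3 highest in 7239 of 19938. In the interstitial class deleted 3 was highest in 21 of 24 members. Among controls, control 1 was highest in 16 of 24 interstitial members and lowest in 10 of 19 basement membrane members. Over all genes tested it was highest in 7579 and lowest in 6638 of 19938. Control 2, the array with placental transcripts, lay between the other controls in the basement membrane mean. Without deleted 2 the basement membrane median was -0.08 and the interstitial median -0.0008.

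Hemidesmosome partners and matrix receptors, which include receptors for interstitial proteins such as fibronectin, were mostly lower (53.5% over all genes), with few past the threshold. All 6 measured genes listed as hemidesmosome partners were lower, with a median of -0.24, or 4 of 6 and -0.03 with housekeeping centring. Among them 1 fell, Itga3, where 1.59% of all genes fell. The other 5 did not pass, namely Itga6, Itgb4, Dst, Plec and Cd151. Itga3, an integrin chain that binds epithelial laminins, fell by 0.40 (SE 0.07, adjusted p = 0.0483 by limma). It read 9.26, 9.19 and 9.36 on deleted and 9.76, 9.65 and 9.60 on control arrays, and lost its call when any 1 array was left out (adjusted p of 0.0737 to 0.177), with housekeeping centring (0.243), with an intensity trend (0.0579) and with each array centred on the median of all genes (0.0672). Plec and Cd151, a linker to keratin filaments and a tetraspanin bound to laminin receptors, differed by -0.25 and -0.24, and the integrin chain genes Itga6 and Itgb4 by -0.17 and -0.24.

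Of 20 matrix receptors, 2 fell, 1 rose and 17 did not pass, where 1.59% of all genes fell and 0.386% rose. Their median was -0.21, or 0.01 with housekeeping centring. Sdc4, a heparan sulphate proteoglycan that acts with integrins on fibronectin, read 9.01, 9.11 and 9.13 on deleted and 9.88, 9.75 and 9.84 on control arrays. It fell by 0.74 (SE 0.07, adjusted p = 0.00303 by limma) and kept its call when any 1 array was left out. Itgb3, a beta chain of receptors for vitronectin, fibronectin and the Edil3 product, read 9.53, 9.51 and 9.52 on deleted and 10.53, 10.48 and 10.15 on control arrays. It fell by 0.87 (SE 0.10, adjusted p = 0.0085 by limma), with an adjusted p of 0.0504 without deleted 1. Its alpha partner Itgav differed by 0.03 and the related Itgb5 by -0.05.

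Itgb8, a chain of an integrin that activates latent TGF-beta, read 9.09, 9.14 and 8.94 on deleted and 8.55, 8.69 and 8.61 on control arrays. It rose by 0.44 (SE 0.08, adjusted p = 0.0381 by limma) and kept its call only without deleted 3 among the fits that left out 1 array. Itgb6, an epithelial chain with a like function, differed by -0.58 (SE 0.19, adjusted p = 0.222 by limma). Epithelial markers were lower, as given above. Smooth muscle markers (8 of 8) and endothelial markers (7 of 8) were also lower, with medians of -0.30 and -0.13. Fibroblast and mesenchyme markers had a median of -0.01, and skeletal muscle markers were higher, with one of 0.70. The part of any cell type in the receptor and partner readings was not tested.

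**Figure D5:**
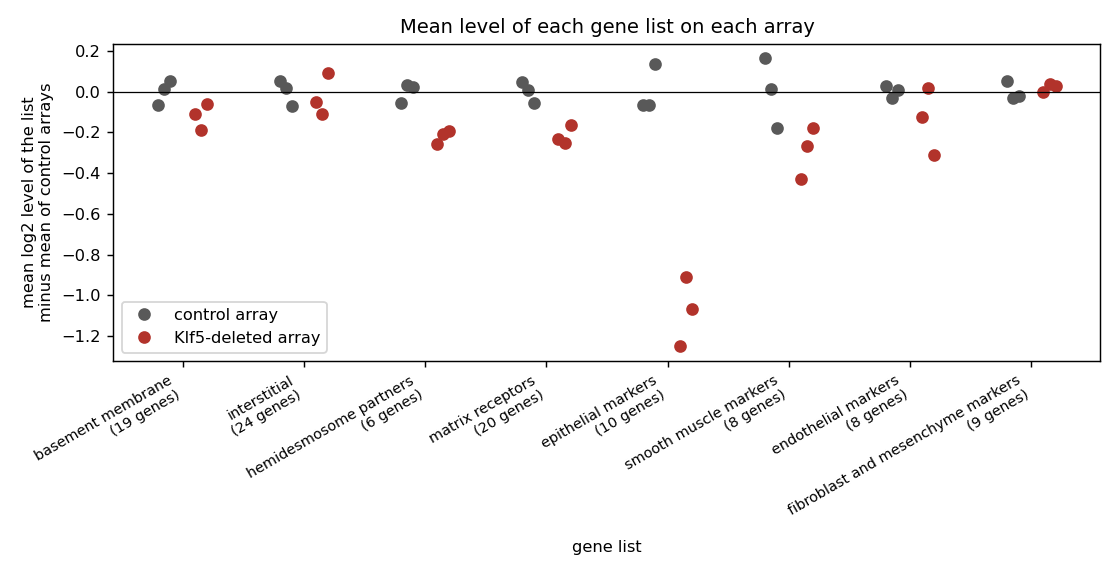
Mean log2 level of each gene list on each array, minus the mean of the control arrays; grey points are controls and red points Klf5-deleted arrays. The basement membrane and interstitial lists overlap between genotypes or nearly meet. Hemidesmosome partners and receptors lie lower (mean differences -0.22 and -0.21), and epithelial markers lower still (-1.07). Smooth muscle and endothelial markers also lie lower in the mean (-0.29 and -0.14), and fibroblast and mesenchyme markers differ by 0.02.

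Enzymes that build the matrix held 1 fall among 18 measured genes, where 1.59% of all genes fell. P4ha2, a subunit of the prolyl hydroxylase that stabilises collagen helices, read 9.39, 9.44 and 9.59 on deleted and 10.10, 9.99 and 9.96 on control arrays. It fell by 0.55 (SE 0.08, adjusted p = 0.0177 by limma), but did not pass without deleted 1, deleted 2 or control 1 (adjusted p of 0.0707 to 0.089) or with housekeeping centring (0.072). The collagen chaperone gene Serpinh1 differed by -0.13 and the crosslinking enzyme gene Lox by 0.17. Among 18 measured proteases and inhibitors none passed by limma, with 7 of 18 at an unadjusted p under 0.05 (14.4% over all genes) and a median of 0.00.

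Of 31 other matrix genes, 2 fell and 29 did not pass, where 1.59% of all genes fell. Their median was -0.01. Thbs1, a thrombospondin that acts on TGF-beta and vessels, read 11.54, 11.43 and 11.56 on deleted and 12.12, 12.21 and 12.01 on control arrays. It fell by 0.60 (SE 0.08, adjusted p = 0.0103 by limma), with an adjusted p of 0.0526 without deleted 1, 0.053 without control 1 and 0.0558 with housekeeping centring. Mfap5, a microfibril-associated protein, read 9.77, 10.19 and 10.22 on deleted and 11.21, 11.04 and 10.73 on control arrays. It fell by 0.93 (SE 0.16, adjusted p = 0.0335 by limma) and kept its call only without control 3 among the fits that left out 1 array. None of the basement membrane genes of this list passed by limma. Col15a1, a collagen of vascular and muscle basement membranes, differed by -0.33 and Egfl6, an integrin-binding basement membrane protein, by 0.61, both without overlap (adjusted p = 0.106 and 0.0721 by limma). Col4a3, Col4a4, Lamc3, Agrn, Npnt, Fras1, Frem1 and Frem2 differed by -0.10 to 0.18, with overlap.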

How the data were processed

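The authors deposited log2 expression values for 35557 features on 6 arrays, made with RMA per the submitters' processing notes; version and build are not stated in the sources used here. The log2 scale was inferred from values of 3.24 to 14.6. RMA equalises array distributions and compresses dim differences, and without scanner files no feature could be called above background. Features with a single symbol were kept (21789; 1621 had several, 12147 none), and the feature with the highest mean over 6 arrays stood for each of 19938 genes. limma 3.58.1 in R 4.3.3 (lmFit, eBayes without trend, two-sided, Benjamini-Hochberg over all genes) gave every SE, interval and adjusted p; the procedure was tested on simulated data. Exact permutation of 3 against 3 arrays cannot give p under 0.1. Nothing in the labels says that pools came from separate litters, so p-values reflect pool-to-pool spread alone.

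The members, classes and lists were chosen with earlier results of these data known, Hmcn1, Edil3 and Ltbp1 among them, and counts over them are descriptions. Values by array are given for members past the threshold, the 4 largest rises and falls, the 4 with the largest spread and others that illustrate a group, and for partner genes past the threshold. Housekeeping centring used the median of 7 genes. That median was 12.16, 12.36 and 12.37 on deleted and 12.57, 12.49 and 12.47 on control arrays. The fitted differences of the 7 genes ranged from -0.28 to 0.05, with a median of -0.01, so the shift depended on the gene in the middle of each array. Sequences are from RefSeq, GRCm38.p6, and 31 of 46 members matched by symbol. Alternatives were other scalings, an intensity trend, the mean of all features, a minimum mean of 6, the replicate number as a block, and leaving out each array.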

Additional observations from a re-analysis of the deposited data

How the results depend on the processing

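The counts depended on scaling and on single arrays. Centring on housekeeping genes raised the genes past the threshold from 395 to 1633 (261 falls and 1372 rises, against 318 and 77) and the members from 3 to 6, adding Col12a1, Fbn2 and Tnc, all rises; it turned the median of basement membrane members to 0.0745 and of interstitial members to 0.162, and 21 of 45 members changed sign. Leaving out 1 array gave 141 to 349 genes and 0 to 1 members, medians of -0.168 to -0.0823 and -0.0979 to -0.0008, and 0 to 7 members with another sign. The intensity trend, the mean of all features, the minimum mean of 6 and median centring kept Hmcn1, Edil3 and Ltbp1 past the threshold. Correlations of same-numbered deviations from the group means were 0.00915, 0.0313 and 0.0787. Every array except deleted 1, which reached 0.011 with control 2, correlated best with its own number. Values this small, from 3 arrays per group, cannot show whether same-numbered pools shared a litter or day. A fit with the replicate block left 110 genes and no member past the threshold (adjusted p = 0.15 for Hmcn1, 0.143 for Edil3 and 0.12 for Ltbp1 by limma). Without scanner files no signal could be set against background, and the dimmer members, such as Lamb3, Lama3 and Ltbp2, may be compressed by RMA.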
